A study of Sus scrofa with 13 samples.

Results

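The genes described here are the TGF-beta ligands TGFB1, TGFB2 and TGFB3, the receptors TGFBR1, TGFBR2 and TGFBR3, and the intracellular mediators SMAD2, SMAD3, SMAD4 and SMAD7. They were found by the gene symbol that the array's platform annotation gives each probe set, a probe set being the group of short probes that reads one transcript. Of the 10 genes, 7 had at least 1 probe set of that symbol, and together they had 14 of the 23999 probe sets outside the array's controls. TGFB1 had 2, TGFB2 had 4, TGFB3 had 2, TGFBR1 had 3, and TGFBR3, SMAD3 and SMAD4 had 1 each. Where a gene has several, they are lettered from a by falling mean level, and the panels of the plot of levels by animal give their identifiers. TGFBR2, SMAD2 and SMAD7 had no probe set under those symbols and are not analysed here.

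RNA came from heart muscle of 13 female Sinclair miniswine, a small pig breed, infarcted at an age of 3 months by permanent ligature of diagonal branches of the coronary artery on the front of the left ventricle. All animals of both groups carried this infarct, and no heart without an infarct was included. The stem cell group (7 animals) received 50000000 cells in 2 ml saline at 5 sites in the border zone of the infarct, and the saline group (6 animals) received 2 ml saline at 5 such sites. The labels call the cells MPCs and do not spell the term out. Drill biopsies were taken at month 4, each animal gave 1 porcine expression array, and where a biopsy lay relative to the scar is not given per animal.

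TGF-beta is secreted as a latent complex that is held in the extracellular matrix until it is activated. The active ligand brings type II and type I receptors together, the type I receptor TGFBR1 phosphorylates SMAD2 and SMAD3, and these enter the nucleus with SMAD4 to regulate transcription. In the heart the pathway is known for its part in turning fibroblasts into myofibroblasts that lay down scar after an infarct, and collagen, fibronectin and periostin genes are among its known targets. SMAD7 is a feedback inhibitor of the receptor, and TGFBR3, also called betaglycan, is a co-receptor that presents ligand, TGFB2 above all.

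Levels are log2 of the deposited intensity, so that a step of 1 is a doubling, and differences are stem cells minus saline. Probe sets were tested where their mean over the 13 arrays was above 3.36, the 40th percentile; 17 tag controls with no porcine target had means of up to 2.58. This kept 14399 probe sets, among them 8 of the 14 described here, from 6 genes. The other 6 probe sets lay under that level and are given as levels only. Cardiomyocyte genes were bright on every array, with a mean log2 level over 12 markers of 13.84 to 14.06 in the saline group and 13.90 to 14.16 in the stem cell group. A biopsy holds many cell types, and in such bulk tissue fewer cells of a type and less RNA per cell cannot be told apart. The 13 arrays limit the precision of every value.

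None of the 8 tested probe sets of the TGF-beta genes differed between the groups after adjustment. In limma, 0 of the 14399 probe sets (0%) had an adjusted p under 0.05, and the smallest adjusted p was 0.393. At an unadjusted p under 0.05 there were 1519 probe sets (10.5%), and 1 of the 8 was among them, SMAD3, which passed the filter on low levels only through the saline group and so gives no support. Of the 8, 4 were lower and 4 higher after stem cells, with a median difference of -0.10 against 0.02 over all probe sets tested. TGFB1 was lower on both of its probe sets, TGFB3 was lower, TGFBR1 and SMAD4 were higher, and TGFB2 differed by 0.03 or less, none of these past the threshold. Among 9 measures of tissue makeup and RNA quality, the log2 3' to 5' ratio of the EF1A control probes averaged 0.81 ± 0.107 in the 7 stem cell arrays and 0.95 ± 0.0984 in the 6 saline arrays (SD; unadjusted two-sided exact permutation p = 0.046), and its part in the group differences was not tested.

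TGFB1 encodes the ligand most often studied in cardiac fibrosis. On probe set a its log2 level in the saline group ran from 6.51 through a median of 6.78 to 7.09. In the stem cell group it ran from 5.17 through a median of 6.61 to 7.08. The stem cell arrays were more widely spread, since replicates 2 and 6 stood low at 5.17 and 5.46 while the other arrays overlapped the saline group or, at 6.23 in replicate 4, lay just under it. The means were 6.32 ± 0.749 (SD, n = 7) and 6.80 ± 0.206 (SD, n = 6). The difference was -0.48 ± 0.29 (SE; 95% interval -1.11 to 0.15), a fold of 0.717, with an adjusted p of 0.575 in limma. Without stem cells replicate 2 it was -0.29, and without both low arrays it was -0.08. These 2 arrays were picked for their low values after the data were seen. Leaving them out had to shrink the difference, so -0.08 shows only how much of its size came from them.

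TGFB1 probe set b was much narrower in range. Its levels ran from 3.95 through 4.05 to 4.12 in the saline group and from 3.50 through 3.92 to 4.00 in the stem cell group. All 7 stem cell arrays lay below the saline mean, and 5 of them lay below the lowest saline array. The difference was -0.20 ± 0.10 (SE; 95% interval -0.41 to 0.01), with an adjusted p of 0.501 in limma and an unadjusted p of 0.0169 in the two-sided exact permutation test over the 1716 ways to split the arrays. The lowest arrays were again stem cells replicates 2 and 6, at 3.63 and 3.50, and without both the difference was -0.09 (adjusted p = 0.92 in limma). Here too, leaving out the lowest arrays of the lower group had to shrink the difference. The 2 probe sets correlated at r = 0.84 over the 13 arrays (permutation p = 0.00551, adjusted p = 0.0152 over 11 pairs of probe sets of the same gene; rho = 0.52, permutation p = 0.0724, adjusted p = 0.199), and without the 2 arrays farthest from the median r was 0.18, so that their agreement rests on those arrays.

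TGFB2 encodes the ligand that depends most on betaglycan. On probe set a it ran from 3.89 through 4.28 to 5.43 in the saline group and from 3.93 through 4.45 to 5.42 in the stem cell group. The groups overlapped almost fully, with 1 high array at the top of each, saline replicate 6 and stem cells replicate 4. The difference was 0.01 ± 0.26 (SE; 95% interval -0.56 to 0.57), adjusted p = 0.996 in limma. Its sign turned when arrays were normalized once more or centred on their medians, and, on both tested probe sets, without any one of several animals, stem cells replicate 4 among them.

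TGFB2 probe set b gave the same picture, from 3.80 through 4.21 to 5.59 after saline and from 3.89 through 4.29 to 5.33 after stem cells. The same 2 arrays were highest. The difference was 0.03 ± 0.28 (SE; 95% interval -0.56 to 0.61), adjusted p = 0.978 in limma. The tested TGFB2 probe sets correlated at r = 0.89 (permutation p = 0.00019, adjusted p = 0.00209; rho = 0.80, permutation p = 0.00179), and at 0.63 without the 2 arrays farthest from the median. TGFB2 probe set c, which was under the filter, stayed between 2.54 and 3.36 and correlated with both at r = 0.87 (permutation p = 0.00097 and 0.00045; rho = 0.73 and 0.75, permutation p = 0.00658 and 0.00382; r = 0.50 and 0.59 without 2 arrays). Probe set d lay between 1.73 and 2.07, under the highest tag control mean on every array.

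TGFB3 was the most variable of the TGF-beta genes from animal to animal. Its probe set a ran from 5.02 through 5.67 to 8.18 in the saline group and from 4.61 through 5.48 to 8.24 in the stem cell group. Each group held 1 animal far above the others of its group, saline replicate 2 and stem cells replicate 4, and the remaining arrays overlapped. Between the lowest and the highest of the 13 arrays the intensity differed 12.4-fold, from 24.5 to 303. The group difference was -0.23 ± 0.58 (SE; 95% interval -1.47 to 1.01), adjusted p = 0.906 in limma. Its sign turned without saline replicate 2 and with a covariate for tissue makeup, and the interval is wide enough to hold a doubling or a halving. TGFB3 probe set b lay between 2.21 and 2.63, near the tag controls, and did not follow probe set a (r = -0.07, permutation p = 0.833; rho = 0.00, permutation p = 0.997; r = 0.32 without the 2 arrays farthest from the median).

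**Figure D1:**
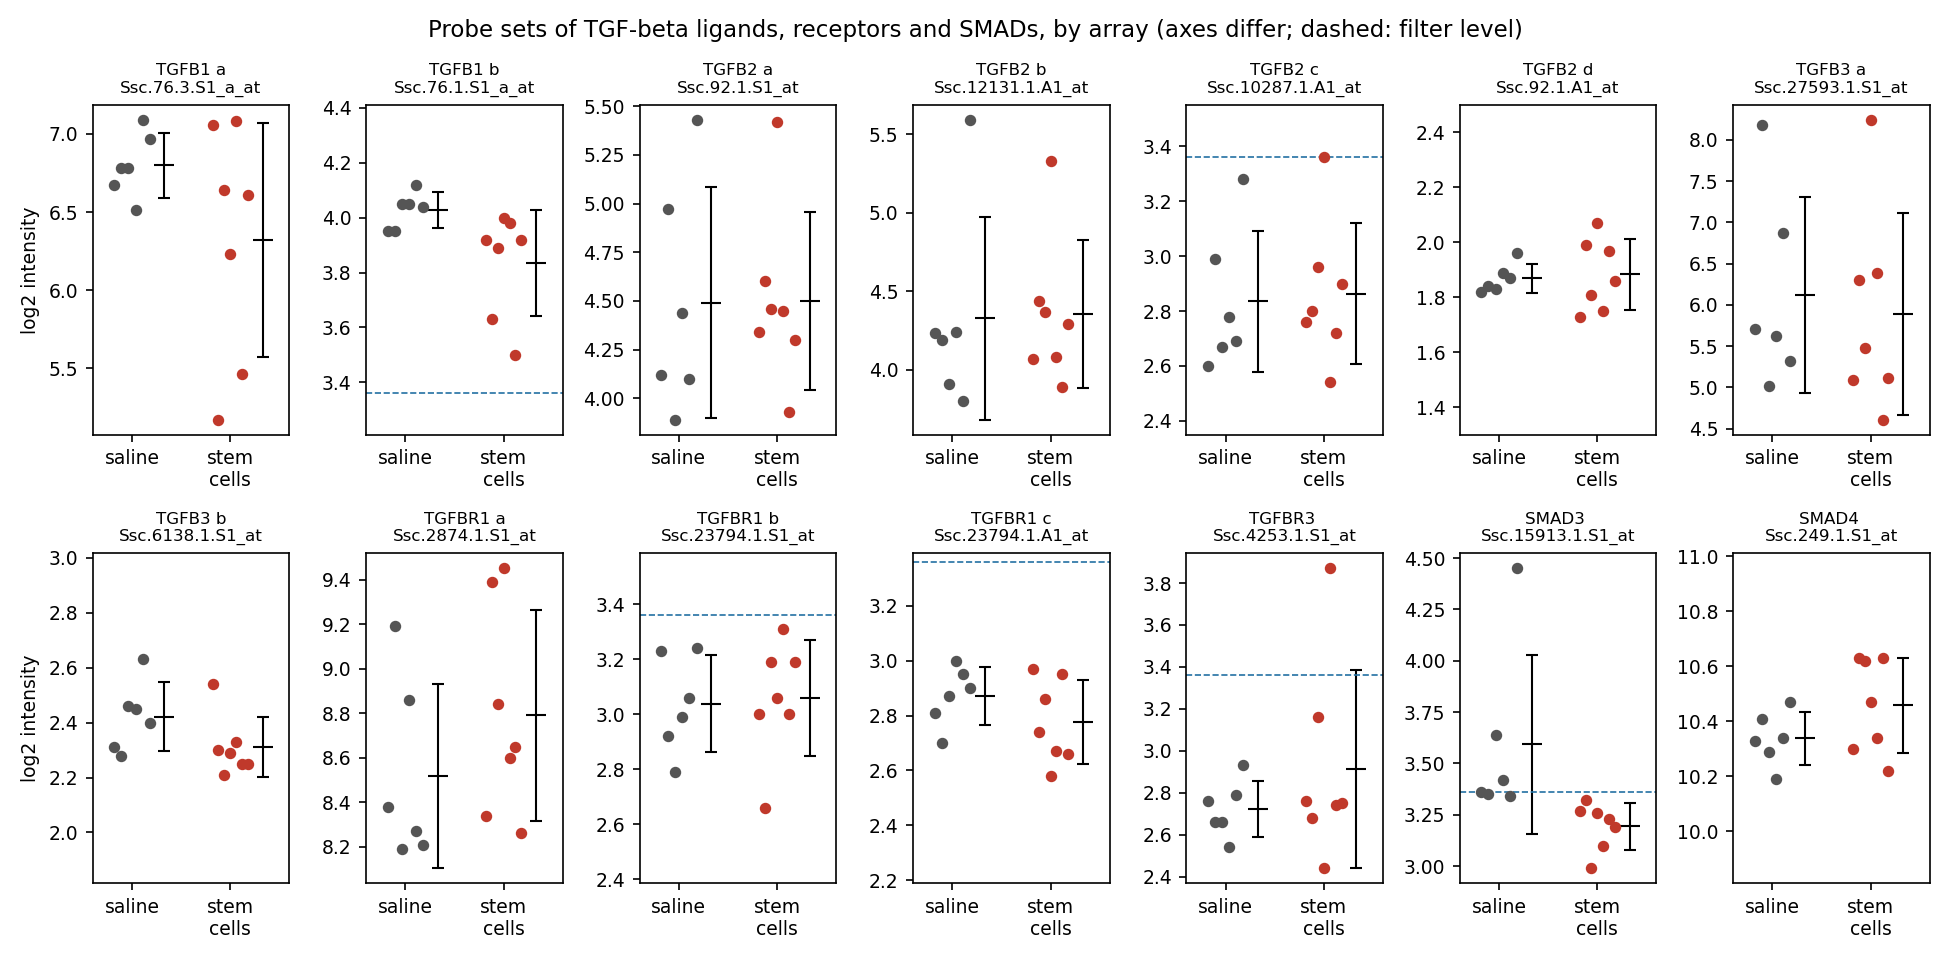
Log2 intensity of all 14 probe sets of the 7 measured genes, 1 point per animal (saline grey, 6 animals; stem cells red, 7 animals), with the group mean and SD as a black bar; panel titles give the letter and identifier of each probe set, the vertical axes differ between panels, and the dashed line is the filter level of 3.36 where it lies in range. The groups overlap in every panel but that of SMAD3, TGFB1 has 2 low stem cell arrays, and TGFB3 has 1 high array in each group.

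TGFBR1, also called ALK5, is the type I receptor kinase that phosphorylates SMAD2 and SMAD3. Its probe set a, the tested one, ran from 8.19 through 8.32 to 9.19 in the saline group and from 8.26 through 8.65 to 9.45 in the stem cell group. The groups overlapped, although 5 of 7 stem cell arrays lay above the saline mean and 2 above the highest saline array. The difference was 0.27 ± 0.24 (SE; 95% interval -0.23 to 0.77), a fold of 1.21, adjusted p = 0.682 in limma. Single animals moved it: leaving out stem cells replicate 4 gave 0.16, leaving out stem cells replicate 2 gave 0.17, and leaving out saline replicate 2 gave 0.41. TGFBR1 probe sets b and c stayed between 2.58 and 3.31, and their r with probe set a was -0.41 (permutation p = 0.166; rho = -0.29, permutation p = 0.334; -0.45 without 2 arrays) and -0.48 (permutation p = 0.0977; rho = -0.29, permutation p = 0.34; -0.47 without 2 arrays). All statements on TGFBR1 and TGFB3 therefore rest on 1 probe set each.

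The co-receptor TGFBR3 was dim. Its only probe set ran from 2.54 through 2.71 to 2.93 in the saline group and from 2.44 through 2.75 to 3.87 in the stem cell group. Stem cells replicate 5 alone passed the filter level, at 3.87. The means of 2.91 ± 0.472 (SD, n = 7) and 2.73 ± 0.134 (SD, n = 6) were not tested.

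SMAD3, the receptor-activated mediator most tied to matrix gene transcription, was the one TGF-beta gene whose groups did not overlap, but at a level barely over the filter. It ran from 3.34 through 3.39 to 4.45 in the saline group and from 2.99 through 3.23 to 3.32 in the stem cell group. All 7 stem cell arrays lay below all 6 saline arrays, by as little as an intensity of 9.98 against 10.1, and saline replicate 6 stood apart from the rest of its group at an intensity of 21.9. Over all probe sets tested, 23 of 14399 (0.16%) were lower after stem cells with no overlap. The difference was -0.40 ± 0.15 (SE; 95% interval -0.73 to -0.07), a fold of 0.759, with p = 0.0206 and an adjusted p of 0.423 in limma; the exact permutation test gave an unadjusted two-sided p of 0.000583. Its mean of 3.38 passed the filter because of the saline group, of which 4 of 6 arrays lay above the filter level against 0 of 7 stem cell arrays, and a probe set that passes through one group has to differ, so the difference stands here as a description only. Without saline replicate 6 the difference was -0.23. SMAD3 also followed the EF1A 3' to 5' ratio over the 13 arrays, at r = 0.70 (permutation p = 0.00054, adjusted p = 0.274). Its rho was 0.75 (permutation p = 0.00414), and r was 0.60 without 2 arrays. Both SMAD3 and the ratio averaged higher in the saline group, so an r over both groups takes in that gap. No value within the groups was computed, so this r too is a description only. The part of RNA quality in the SMAD3 difference was not tested.

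SMAD4 is the common partner that the activated SMADs need in the nucleus. Its probe set had the narrowest range among the tested probe sets, from 10.19 through 10.34 to 10.47 in the saline group and from 10.22 through 10.47 to 10.63 in the stem cell group. In the stem cell group, 3 of 7 arrays lay above the highest saline array, and the rest overlapped. The difference was 0.12 ± 0.11 (SE; 95% interval -0.12 to 0.35), adjusted p = 0.706 in limma, so that a change beyond 0.35 on the log2 scale lies outside its interval.

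**Figure D2:**
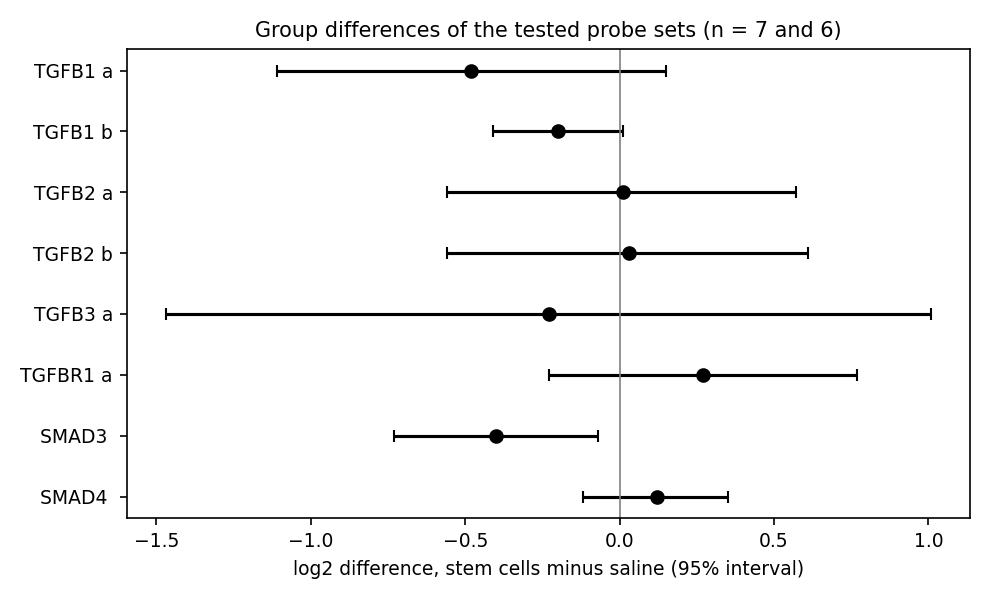
Log2 difference, stem cells minus saline, of the 8 tested probe sets of TGF-beta genes (points) with 95% intervals from limma (bars; 7 and 6 animals). Only the interval of SMAD3 lies wholly on one side of 0, and its adjusted p was 0.423; the interval of TGFB3 is the widest, from -1.47 to 1.01.

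The genes around the ligands, receptors and SMADs were counted in 6 pathway lists of 98 genes, of which 48 were on the array and 41 were tested. Of these, 26 were lower and 15 higher after stem cells (63.4% lower against 47.2% of all probe sets), the median difference was -0.16, and 0 passed the adjusted threshold. At an unadjusted p under 0.05, 5 were lower and 0 higher, against 5.15% and 5.4% of all probe sets. The 5 were ENG, FKBP1A, STUB1, FSTL3 and CNN1.

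Among the co-receptors, endoglin (ENG), a receptor of endothelial cells, differed by -0.65 ± 0.29 (SE; adjusted p = 0.458 in limma), from 8.36 ± 0.288 (SD, n = 6) after saline to 7.71 ± 0.715 (SD, n = 7) after stem cells. BAMBI, a decoy receptor without kinase activity, differed by -0.29 ± 0.20. FKBP1A, which binds TGFBR1 and keeps it inactive without ligand, differed by -0.27 ± 0.10 (adjusted p = 0.42 in limma). STUB1, a ubiquitin ligase, differed by -0.55 ± 0.22. TGIF1, a co-repressor of SMADs, differed by -0.60 ± 0.35, and PMEPA1, an inhibitor that TGF-beta itself induces, by -0.69 ± 0.50. In the list of regulators 5 of 8 genes were lower and 3 higher.

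TGF-beta response genes outside the matrix list were lower in 10 of 14 cases, with a median of -0.48, and 0 passed the adjusted threshold. FSTL3, a secreted inhibitor of activins, had the smallest p of the pathway genes, with 6.41 ± 0.401 (SD, n = 6) after saline and 5.36 ± 0.586 (SD, n = 7) after stem cells, a difference of -1.06 ± 0.27 (SE; adjusted p = 0.393 in limma). CNN1, the smooth muscle calponin, differed by -1.54 ± 0.69, CDKN1A, a cell cycle inhibitor, by -0.75 ± 0.45, and ID1, a target of BMP signalling, by -1.04 ± 0.63. Smooth muscle and pericyte markers, which include CNN1, ran from 9.56 to 10.64 in the saline group and from 8.78 to 10.38 in the stem cell group as a mean log2 level over 6 of 11 markers, with 4 of 6 lower. Macrophage and monocyte markers were lower in 8 of 9 cases, with a median difference of -0.31 and 2 at an unadjusted p under 0.05 in limma; their mean level ran from 6.67 to 7.70 after saline and from 6.37 to 7.36 after stem cells (two-sided exact permutation p = 0.106). The part of either cell type in the lower response genes was not tested.

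Latency and activation genes were 4 lower and 3 higher, with a median of -0.05. The largest of the 4 with the smallest p was -0.24 ± 0.23 for ITGB3, beside -0.22 ± 0.13 for MMP14, 0.20 ± 0.20 for ITGAV and 0.17 ± 0.17 for ITGB1, all parts of the machinery that frees the ligand. The non-SMAD branch was 3 lower and 4 higher, with AKT1 at -0.44 ± 0.25, RHOA at -0.16 ± 0.14, MAPK9 at 0.17 ± 0.15 and MAPK14 at 0.22 ± 0.29. Of other SMADs and partners, SMAD1 differed by -0.10 ± 0.31, SP1 by -0.09 ± 0.13 and JUN by 0.23 ± 0.44.

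The TGF-beta genes were then related to the matrix genes over the 13 animals. The matrix score of an array was the mean log2 level of the 32 tested genes of a list of 50 that holds collagens, the enzymes that process them, other matrix proteins, and the protease MMP2 with its TIMP inhibitors. It ran from 7.49 to 9.07 in the saline group and from 7.15 to 8.70 in the stem cell group. The score was highest in saline replicate 2 and stem cells replicate 4, and between the highest and the lowest array it differed 3.78-fold. The group means were 7.98 ± 0.584 (SD, n = 6) and 7.84 ± 0.523 (SD, n = 7), a difference of -0.14 with a two-sided exact permutation p of 0.664. In limma 0 of the 32 genes passed the adjusted threshold; 19 were lower and 13 higher after stem cells. COL3A1 (0.35 ± 0.12) had the smallest p, followed by PLOD1 (-0.41 ± 0.17), SERPINH1 (-0.61), TIMP2 (-0.63), COL1A2 (0.31) and COL6A2 (-0.39). The probe sets of COL1A2 and COL3A1 were dim, with group means between 3.48 and 3.83.

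TGFB3 followed the matrix score closely. Over the 13 arrays Pearson's r was 0.92 (permutation p = 2e-05, adjusted p = 0.0103 over 14353 probe sets outside the matrix list), and Spearman's rho was 0.80 (permutation p = 0.00156, adjusted p = 0.164, with 0 of the 8 called and 0.0697% of all probe sets called by rho). It was the only 1 of the 8 TGF-beta probe sets past the threshold, against 1.21% of all probe sets in either direction and 1.11% in the positive one, and 19 of the 14353 (0.132%) had an r as high or higher. The animals with the highest score, saline replicate 2 and stem cells replicate 4, were those with the highest TGFB3, and stem cells replicate 6 was lowest in both. Within the stem cell group r was 0.96 (exact permutation p = 0.000397, n = 7) and within the saline group 0.88 (exact permutation p = 0.0417, n = 6). The saline value takes in replicate 2, whose score of 9.07 stood apart from the next saline array at 8.04. An r within the saline group without that animal was not computed, so the relation there can rest on 1 animal.

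The animals farthest from the median score were saline replicate 2 and stem cells replicate 6. Without these 2 animals r for TGFB3 was 0.87 (n = 11, permutation p = 0.00114) and the adjusted p was 0.109; no probe set on the array passed the threshold then. Without the 2 animals with the highest score, r was 0.78 (permutation p = 0.00492, adjusted p = 0.882). Leaving out single animals kept the call in 11 of 13 cases. It was lost without saline replicate 2 (r = 0.88, adjusted p = 0.0765) and without stem cells replicate 4 (r = 0.91, adjusted p = 0.0632). With the score built from collagen genes alone r was 0.89 and the adjusted p 0.066.

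TGFBR1 came next. Its r with the matrix score was 0.70 (permutation p = 0.00721, adjusted p = 0.153; rho = 0.62, permutation p = 0.0271), which did not pass the threshold, and 4.06% of all probe sets reached it. It was 0.78 without the 2 animals farthest from the median. Without the 2 animals with the highest score it was 0.45 (permutation p = 0.168), and without stem cells replicate 4 alone it was 0.61. Taking each array's deviation from its group mean gave 0.79 (adjusted p = 0.0992). Within the groups it was 0.74 after stem cells (exact permutation p = 0.0607, n = 7) and 0.86 after saline (exact permutation p = 0.0361, n = 6). The saline value again takes in replicate 2, the array with the outlying score, and was not computed without it.

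The other ligands showed no relation of that size over all animals. TGFB2 probe set a had r = 0.53 (permutation p = 0.0609, adjusted p = 0.39; rho = 0.53, permutation p = 0.0639; 0.38 without the 2 animals). Its value was 0.92 in the stem cell group (exact permutation p = 0.00119, n = 7) and 0.21 in the saline group (exact permutation p = 0.685, n = 6), a difference that was not tested. Saline replicate 6 had high TGFB2 with a low score, and without that animal r over the remaining 12 was 0.81. Without stem cells replicate 4 it was 0.38, and without the 2 animals with the highest score 0.11 (permutation p = 0.772). TGFB2 probe set b had r = 0.17 (permutation p = 0.589; rho = 0.15, permutation p = 0.618; 0.19 without the 2 animals), and 0.47 without saline replicate 6.

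TGFB1 had r = 0.09 on probe set a (permutation p = 0.762; rho = 0.09, permutation p = 0.781) and r = 0.32 on probe set b (permutation p = 0.289; rho = 0.34, permutation p = 0.248). Without the 2 animals farthest from the median these were -0.33 and 0.03, so that neither the sign nor the size was settled. SMAD3 had r = -0.19 (permutation p = 0.492; rho = -0.00, permutation p = 1; -0.34 without the 2 animals) and SMAD4 had r = 0.03 (permutation p = 0.929; rho = 0.04, permutation p = 0.896; 0.33 without the 2 animals), a value whose sign turned under several settings.

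**Figure D3:**
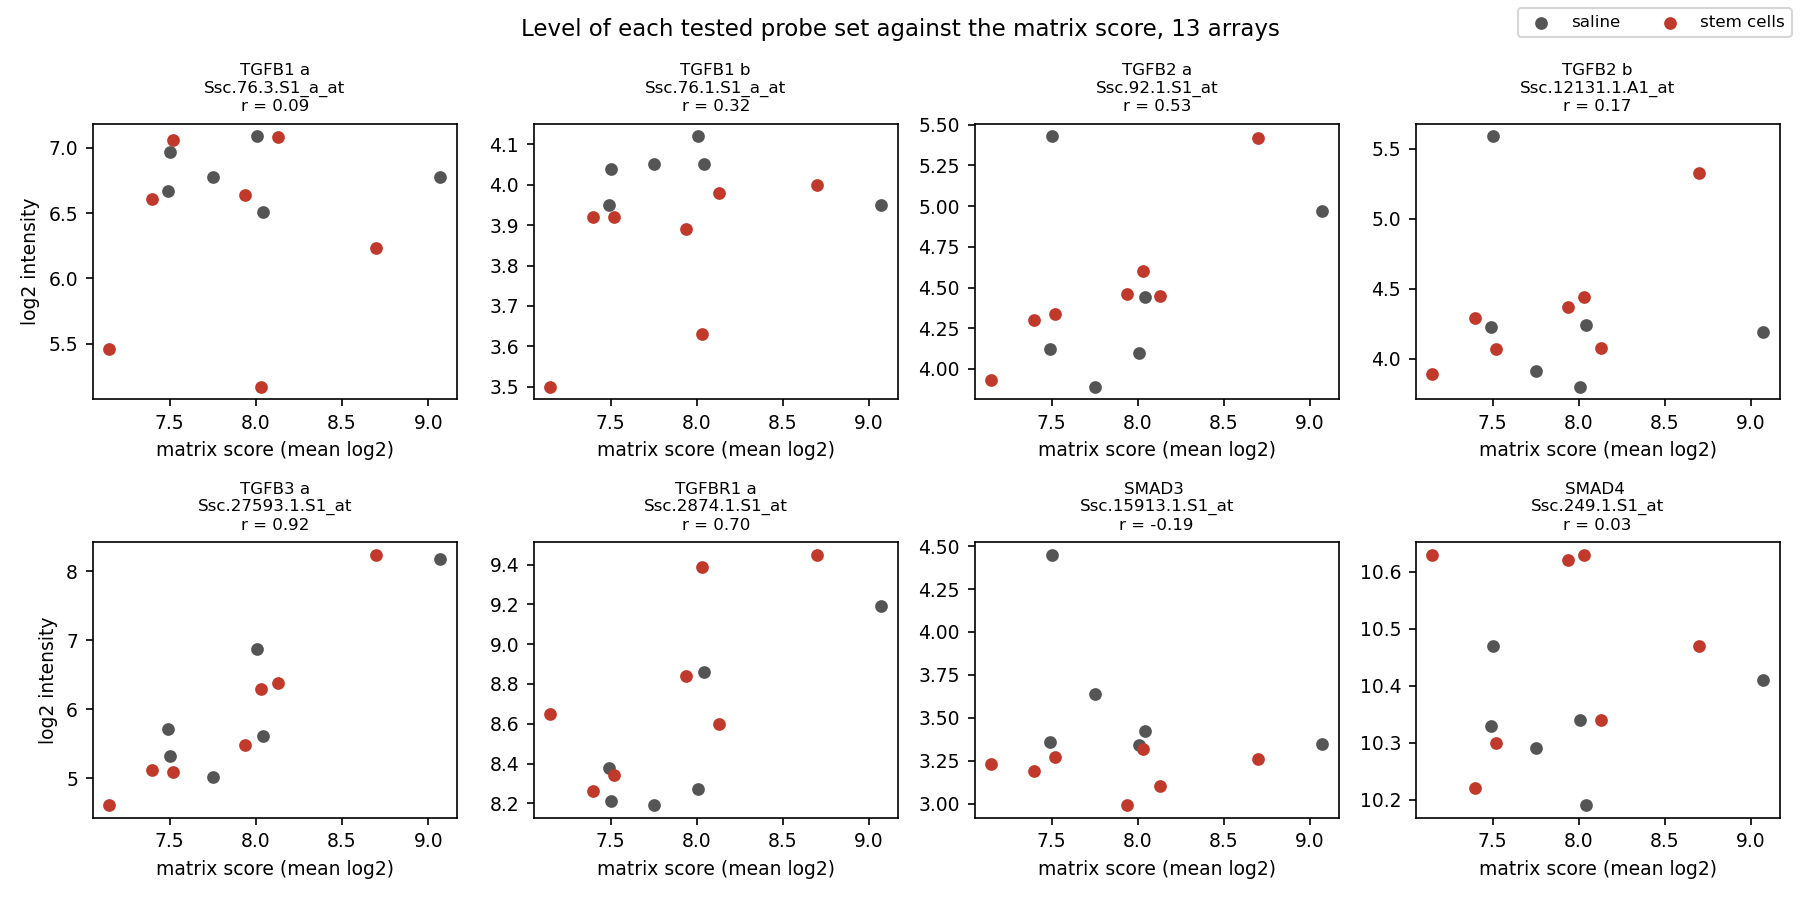
Log2 intensity of each tested probe set (vertical axes) against the matrix score, the mean log2 level of 32 matrix genes (horizontal axes), 1 point per animal, saline grey and stem cells red. TGFB3 rises with the score over the 13 animals (r = 0.92) and TGFBR1 less tightly (r = 0.70), whereas TGFB1 and both SMADs show no slope that held. In the saline group these slopes can rest on replicate 2, whose score of 9.07 stood apart.

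**Figure D4:**
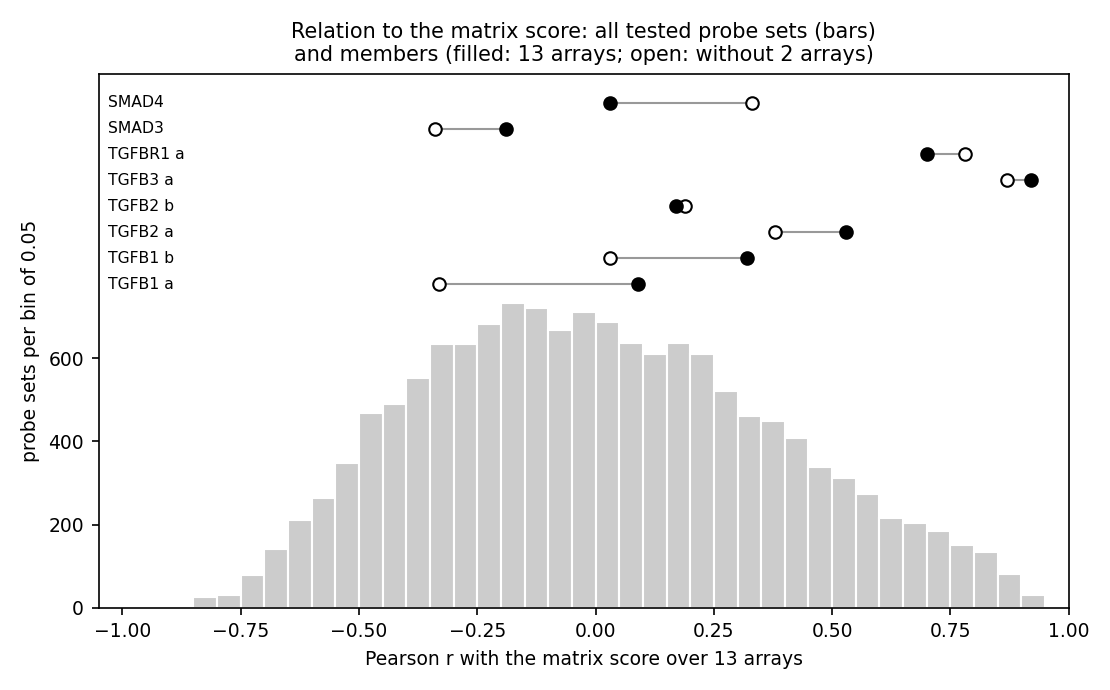
Pearson r with the matrix score: bars count the 14353 tested probe sets outside the matrix list in bins of 0.05, and points give the 8 TGF-beta probe sets over 13 arrays (filled) and without the 2 arrays farthest from the median score (open); rows are offset upward only for legibility. TGFB3 lies at the right end at 0.92, with TGFBR1 at 0.70 inside the upper tail.

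Taken gene by gene, TGFB3 was positively correlated with all 32 matrix genes, with a median r of 0.66 (all probe sets: -0.02), and 15 of the 32 exceeded 0.7 (all probe sets: 3.76%). Of these 5 had an adjusted p under 0.05 in the permutation test over all probe sets, where 0.695% did so. They were COL6A3 (r = 0.94) and COL8A1 (r = 0.87), which encode chains of collagens VI and VIII, FBLN1 (r = 0.92), a fibulin, BGN (r = 0.88), a small proteoglycan that can bind TGF-beta, and MMP2 (r = 0.86). By Spearman's rho the adjusted permutation p of these 5 was 0.168 to 0.285, so that none of the calls held by rank. The matrix genes move together, so that these are not independent relations.

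TGFBR1 was positively correlated with 29 of 32 matrix genes, with a median r of 0.56 (all probe sets: 0.05), and 12 exceeded 0.7 (all probe sets: 4.78%). In its case 8 passed the adjusted threshold, against 1.97% of all probe sets: LUM (r = 0.94), ASPN (0.89), LOX (0.85), FBN1, DCN and LAMB1 (0.84 each), SPARC (0.83) and POSTN (0.82). LUM, ASPN and DCN are small leucine-rich proteoglycans, LOX crosslinks collagen, FBN1 forms the microfibrils that hold latent TGF-beta, and POSTN is made by activated fibroblasts. By Spearman's rho their adjusted permutation p was 0.0818 to 0.122, and none of the 8 calls held by rank. None of these 8 was among the 5 of TGFB3, but p-values were adjusted separately for each probe set, so the r needed for a call differed. TGFB3 had r = 0.83 with DCN (adjusted permutation p = 0.0533), 0.81 with LOX and 0.80 with SPARC, none of them called. Whether the correlations of the 2 genes differed was not tested. TGFB3 and TGFBR1 correlated with each other at r = 0.65 (permutation p = 0.0149, adjusted p = 0.197; rho = 0.58, permutation p = 0.0425; 0.26 without 2 animals).

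Of the remaining probe sets, TGFB1 probe set b passed with 1 of 32 matrix genes, the collagen chaperone SERPINH1, against 2.72% of all probe sets. This is near the share of all probe sets, so it is no result about matrix genes. With SERPINH1 r was 0.76 (adjusted permutation p = 0.0477) and rho was 0.75 (adjusted permutation p = 0.226). Both genes averaged lower after stem cells, so this r takes in that gap. TGFB1 probe set a passed with 0 of 32, against 2.92% of all probe sets, which is no result about matrix genes either. The TGFB2, SMAD3 and SMAD4 probe sets also passed with 0, but so did 0% of all probe sets, so this is no result about matrix genes. TGFB2 probe set a was positive with 29 of 32, with a median r of 0.38. SMAD3 was positive with 6 of 32, with a median r of -0.18.

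**Figure D5:**
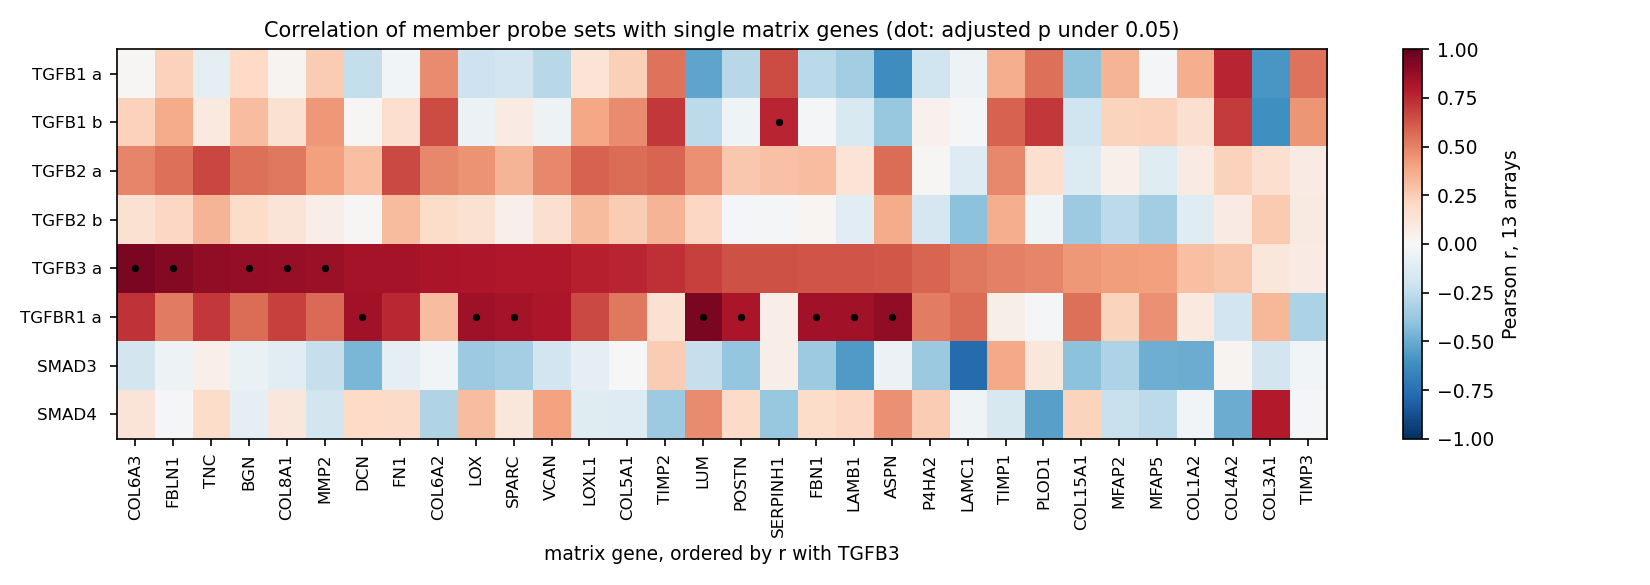
Pearson r over 13 arrays between each tested TGF-beta probe set (rows) and each of the 32 genes of the matrix score (columns, ordered by their r with TGFB3), red positive and blue negative; a dot marks an adjusted p of Pearson's r under 0.05, which no pair reached by Spearman's rho. Adjustment was made separately for each row, so the r that earns a dot differs between rows. The dots of TGFB3 (5) and of TGFBR1 (8) fall on different genes. TGFB3 had r = 0.83 with DCN without a dot, where TGFBR1 has one. The TGFB1, TGFB2, SMAD3 and SMAD4 rows hold 1 dot in all.

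The pathway genes around them also leaned to the positive side, with 34 of 41 correlated positively with the matrix score at a median r of 0.36 (all probe sets: -0.01). Of the 41, 3 passed the threshold: THBS2 (r = 0.91, adjusted p = 0.0196), a matricellular thrombospondin, VIM (r = 0.88, adjusted p = 0.0155), the intermediate filament vimentin, and FAP (r = 0.86, adjusted p = 0.0353), a protease of activated fibroblasts, all by permutation. BAMBI reached 0.81 (adjusted p = 0.0589) and COMP 0.84 (adjusted p = 0.0612). Furthest from 0 among latency and activation genes were MMP14 (0.59), ITGB1 (0.58) and ITGAV (0.36), and among regulators PMEPA1 and DAB2 (0.63 each) and TGIF1 (0.43). In the non-SMAD branch they were RHOA (0.74), ROCK1 (0.60) and MAP3K7 (0.27). Of other SMADs and partners, SP1 had -0.50, SMAD1 0.43 and JUN 0.00, and the co-receptor ENG had 0.15. None of these passed the threshold. By Spearman's rho the adjusted permutation p of THBS2, VIM and FAP was 0.142, 0.118 and 0.0797, above the threshold. Like that of TGFB3, the calls for these 3 genes were lost without the 2 animals farthest from the median score, where r was 0.84 for THBS2, 0.85 for VIM and 0.84 for FAP.

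Fibroblast markers moved with the same score. Among them are VIM and FAP, which were called above as pathway genes, so these observations are not independent. A mean over TCF21, THY1, FAP, S100A4 and VIM, the 5 of 12 fibroblast markers that were tested and not in the matrix list, ran from 6.77 to 8.83 after saline and from 6.38 to 8.50 after stem cells, and it correlated with the matrix score at r = 0.95 (permutation p = 1e-05, the smallest that 100000 resamples can give, adjusted p = 9e-05 over 9 measures; rho = 0.90, permutation p = 0.00012; 0.89 without the 2 animals). TGFB3 correlated with these markers at r = 0.88 (permutation p = 0.00015, adjusted p = 0.0195, against 2.03% of all probe sets; rho = 0.73, permutation p = 0.00687, adjusted p = 0.198; 0.79 without 2 animals). TGFBR1 did so at r = 0.70 (permutation p = 0.0077, adjusted p = 0.138; rho = 0.59, permutation p = 0.038; 0.78 without 2 animals). The macrophage markers correlated with the score at r = 0.68 (permutation p = 0.0103, adjusted p = 0.0465; rho = 0.58, adjusted permutation p = 0.136), which did not hold without the 2 animals (r = 0.31). Smooth muscle and pericyte markers had r = 0.61 with the score, endothelial markers 0.58, fat cell markers 0.44 and cardiomyocyte markers -0.46. None of these had an adjusted permutation p under 0.05, and without the 2 animals they were 0.21, 0.35, 0.42 and -0.04. With the macrophage markers r was 0.69 for TGFB3 (permutation p = 0.00836, adjusted p = 0.197, and r = 0.44 without 2 animals) and 0.31 for TGFBR1. The 3' to 5' ratio of the GAPDH control probes, a sign of RNA integrity, correlated with TGFBR1 at r = 0.73 (permutation p = 0.00443, adjusted p = 0.102; rho = 0.55, permutation p = 0.0552; 0.50 without 2 animals) and with TGFB3 at r = 0.55 (permutation p = 0.0506; rho = 0.22, permutation p = 0.47; 0.34 without 2 animals). With the matrix score the GAPDH ratio had r = 0.57 (permutation p = 0.0414, adjusted p = 0.0746), rho = 0.41, and r = 0.39 without the 2 animals. The actin and EF1A ratios had r = 0.35 and -0.17 with the score. The part of the number of fibroblasts or macrophages and of RNA integrity in the relation of TGFB3 and TGFBR1 to the matrix genes was not tested.

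TGFB1 was set against the same kind of marker means. On probe set a it correlated with smooth muscle and pericyte markers at r = 0.69 (permutation p = 0.0124, adjusted p = 0.15; rho = 0.40, permutation p = 0.18), which was -0.13 without 2 animals and so rests on them. TGFB3 correlated with the same markers at r = 0.62 (permutation p = 0.0251, adjusted p = 0.193). Its rho there was 0.68 (permutation p = 0.0129), and r was 0.77 without 2 arrays. With endothelial markers r was 0.63 for TGFB3 (0.76 without 2 arrays) and 0.63 for TGFB1 probe set a (0.41 without 2 arrays). The part of these cell types in the relation of TGFB3 to the matrix genes was not tested. The named genes most like TGFB1 probe set a over the 13 arrays were RNH1 and ESAM (r = 0.93 each, adjusted p = 0.0334 and 0.0385 by permutation) and EIF5A (r = 0.92, adjusted p = 0.0345). By Spearman's rho, 0.61 to 0.75, their adjusted p was 0.196 to 0.277. These values fell to 0.62, 0.63 and 0.59 without the 2 arrays farthest from the median TGFB1 level, and those arrays were stem cells replicates 2 and 6, in which TGFB1 was low. ESAM is an adhesion molecule of endothelial cells, RNH1 a ribonuclease inhibitor and EIF5A a translation factor.

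For the other genes the closest companions were as follows. TGFB3 was most like CRISPLD2 (r = 0.96, 0.85 without 2 arrays), a secreted protein, RRBP1 (r = 0.94, 0.83 without 2), a ribosome-binding protein of secretory cells, and CAP1 (r = 0.94, 0.80 without 2), an actin regulator, each with an adjusted permutation p of 0.0288. TGFBR1 was most like LUM (r = 0.94, 0.91 without 2), BTBD3 (r = 0.94, 0.91 without 2) and FAM3C (r = 0.92, 0.82 without 2), each at an adjusted permutation p of 0.036. By Spearman's rho none of these 6 passed, with adjusted p-values of 0.196 to 0.253 for TGFB3 and 0.0747 to 0.0971 for TGFBR1. TGFB2 was most like INPP5F, ARPP19 and GPNMB (r = 0.90 each) and SMAD4 like FAS (r = 0.90), EIF4G2 (r = 0.89) and RANBP6 (r = 0.87), with adjusted permutation p-values from 0.126 to 0.159. SMAD3 was most like IP6K1 (r = 0.94, adjusted permutation p = 0.386), AREG (0.85) and LIF (0.83), and these fell to 0.54, 0.31 and 0.09 without the 2 arrays farthest from its median, one of which was the high saline replicate 6.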

How the data were processed

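The authors deposited linear intensities per probe set, computed with GCRMA according to the submitters' processing notes; its settings are not given in those notes. GCRMA evens out the distributions of the arrays, which hides any shift common to most genes. Of 24123 probe sets, 124 controls were left out, log2 was taken, and the 14399 above the 40th percentile of the mean were tested. Symbols came from the platform annotation and matched a pig gene table of Sscrofa11.1 for 9961 of 10069 probe sets with 1 symbol, with 0 changed.

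Groups were compared with limma 3.58.1 (lmFit, eBayes with trend) in R 4.3.3, with Benjamini-Hochberg adjustment over all probe sets. Correlations used 100000 permutations of the arrays (two-sided; exact within groups) in Python 3.11.15, and were adjusted over all probe sets. Both steps were tested on simulated data. Where 2 arrays are left out, they are those farthest from the median of the score, marker mean or gene level set against the probe set.

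The genes and lists were chosen with earlier results of these data known. Named were all probe sets of the 10 genes, up to 4 genes per pathway list by smallest p, up to 3 by largest r with the score, 6 matrix genes by smallest p and the 3 genes most like each member; COMP was named after its value was seen. Genes other than the members were read from their brightest probe set. Alternatives, among them other filters, scalings, variance models, a tissue covariate, a replicate block and leaving out each animal, are in the closing section.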

Additional observations from a re-analysis of the deposited data

Results flagged for a closer look

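In 30 groups of values (each probe set of the TGF-beta genes and the matrix score, by treatment), the gap between an end array and its nearest neighbour was set against the range of its group, and 5 exceeded the 95% critical value; chance gives about 1 in 20 groups. On TGFB2 probe set b, stem cells replicate 4 stood at 5.33 with the next array at 4.44, and saline replicate 6 at 5.59 with the next at 4.24. Saline replicate 6 was also apart in SMAD3, at 4.45 with the next array at 3.64. On TGFB3 probe set b, which is dim, stem cells replicate 1 stood at 2.54 with the next at 2.33, under the highest tag control mean of 2.58. The matrix score of saline replicate 2 was 9.07 and the next saline array had 8.04; the same animal had the highest TGFB3 of its group.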

How the results depend on the processing

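Leaving out single animals, the count of probe sets past the threshold between the groups ran from 0 to 1 (1 without saline replicate 5: HIGD1B, -0.72, adjusted p = 0.0222 in limma) and that of TGF-beta probe sets stayed at 0, as under the other settings run. The count related to the matrix score, 173, fell to 95 with deviations from group means, 112 with no filter, 30 with collagen genes alone, 10 with Spearman's rho, and 0 without the 2 arrays farthest from the median score or the 2 highest (both left out after seeing the data); it ran from 4 to 174 without single animals, 4 in the fit that left out saline replicate 2 and 15 in the one that left out stem cells replicate 4. The TGF-beta count, 1, was 0 under rho, collagen genes and both pairs left out, and 0 to 1 without single animals. For TGFB3 those values were 0.802, 0.885, 0.866 and 0.776, and 0.884 to 0.935 without single animals. Signs turned as follows. The TGFB2 difference on probe set a was -0.0101 after quantile normalization and -0.00495 after median centring, and -0.148 to 0.194 without single animals; on probe set b -0.136 to 0.278. The TGFB3 difference was 0.145 with a tissue covariate and -0.624 to 0.181 without single animals. The correlation of SMAD4 with the score was -0.046 with collagen genes, -0.00765 with the brighter matrix genes, -0.00306 after quantile normalization, -0.00933 after centring, -0.0861 without the 2 highest arrays, and -0.0857 to 0.28 without single animals; that of SMAD3 ran from -0.274 to 0.0317. That of TGFB1 on probe set a was -0.335 without the 2 farthest arrays and -0.18 to 0.198 without single animals, and that of TGFB2 on probe set b was -0.123 without the 2 highest and -0.112 to 0.472. The cause was not tested. Same-numbered animals of the groups did not as a rule deviate together, with correlations of -0.206, 0.237, -0.108, -0.0959, -0.12 and -0.266 for replicates 1 to 6. Only that of replicate 2 was above 0, so the numbers are not taken as pairs. With a replicate block the count stayed at 0, and the TGFB1 difference on probe set a was -0.527, that of SMAD3 -0.398 and that of TGFBR1 0.36. Among alternative values of the group differences, 183 kept their sign and, where an adjusted p was computed, their side of the threshold, and 14 turned in sign. The 183 include the exact permutation tests, which repeat the main difference and carry no adjusted p. With 13 arrays, SEs of log2 differences had a median of 0.18, and probe sets near the tag control level, TGFBR3 and SMAD3 among them, carry little signal over background.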

Other observations

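The TGF-beta genes did not vary as one block from animal to animal. No pair of probe sets of different members passed the adjusted threshold over the 13 arrays. SMAD4 and TGFB1 ran in opposite directions, with r = -0.68 for TGFB1 probe set b (permutation p = 0.00915, adjusted p = 0.178; rho = -0.51, permutation p = 0.0773) and -0.63 for probe set a (permutation p = 0.0197, adjusted p = 0.23; rho = -0.33, permutation p = 0.265). Without 2 arrays these were -0.25 and -0.09, so the relation rests on those arrays. TGFB1 probe set a and TGFBR1 also ran in opposite directions (r = -0.58, permutation p = 0.0338, adjusted p = 0.157; rho = -0.58, permutation p = 0.0385), with r = -0.63 without 2 arrays. TGFB2 probe set a was at r = 0.57 with TGFB3 (adjusted permutation p = 0.565; 0.71 without 2 arrays) and 0.48 with TGFBR1 (adjusted permutation p = 0.684; 0.75 without 2 arrays).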
